A study of Homo sapiens with 4 samples.

Results

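The libraries numbered replicate 1 were compared with those numbered replicate 2 in a miRNA pull-out from DU-145, an established androgen-independent line of human prostate cancer. All 4 libraries of the series entered the comparison. Each replicate number had 1 library from cells given an untagged miR-26a duplex (ds-miR-26aCT, here the control) and 1 from cells given ds-miR-26aBIO, a mix of miR-26a duplexes with a 3′ biotin tag and a thiouridine at nucleotide 7 or at nucleotide 17. Lipofectamine delivered 60 nM of duplex to all cells 24 h after seeding. All were irradiated at 365 nm with 2 J/cm2 a day later, and RNA from all was held on streptavidin beads for 4 h, so both groups had been given miR-26a and the values are of RNA recovered from beads. The series design speaks of 2 biological replicates. The labels do not say whether libraries with the same number were grown or prepared together. The comparison asked which genes differed between the replicate numbers in the same direction in both groups. Of 25673 gene symbols or unmatched accessions, 9926 had at least 1 FPKM in at least 2 libraries and were tested. FPKM is the fragment count scaled to transcript length and to the number of mapped fragments. Values are given as replicate 1 against replicate 2, first for the control pair and then for the biotin pair.

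As background, cells that meet double-stranded or otherwise foreign RNA can sense it through RIG-I-like receptors and make interferon. Interferon acts through JAK kinases on a complex, which includes STAT2 and IRF9, that binds the interferon-stimulated response element, and many antiviral genes can then be induced. Immediate early genes, in contrast, answer growth factors and stress within minutes, and NF-kB drives many cytokine genes.

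Antiviral interferon effectors were mostly higher in replicate 1 in both groups. MX1, a GTPase that blocks viral replication, was at 24.8 against 5.29 FPKM in the control pair and at 15.3 against 2.50 FPKM in the biotin pair. The files place it at chr21:41426031-41459214 in hg38. Both replicate 1 libraries thus lay above both replicate 2 libraries, by 4.69-fold in the control pair and 6.13-fold in the biotin pair. Of 48 tested effectors, 43 were higher in replicate 1 in both groups, against 20.4% of all tested genes, and 2 were lower, against 31.3%. The filter could be passed through the libraries of 1 replicate number alone. IFITM1, SP110 and HERC6 passed it only through replicate 1 and THEMIS2 only through replicate 2, so their direction is tied to their inclusion. No single gene passed the test: with the group as a block, 0 of 9926 genes (0%) had a Benjamini-Hochberg adjusted p under 0.05 in limma, and the lowest was 0.371. At an unadjusted p under 0.05, limma had 227 genes higher (2.29%) and 201 lower (2.02%) in replicate 1. The RNA is from bulk cultures and was recovered from beads. Differences in the share of cells with these RNAs, in RNA per cell and in recovery therefore cannot be told apart.

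To show the element through which such genes are known to respond, the promoters of RefSeq (GRCh38.p14, 250 bases before to 50 after the start) were searched for the letters GAAA, any 2 bases and GAAA again, on either strand. Of 41 tested effectors with a promoter in that table, 22 held a match (53.7%), against 2.47% of 8109 promoters of tested genes and 3.65% of all 27305. The 6 effectors with a match before the start and the largest mean difference are shown with up to 30 bases on each side, read along the gene's strand, centred on the match nearest the start, with every match in the stretch in capitals (reading TTTC where a match lies on the other strand, with overlapping matches joined).
IFI6: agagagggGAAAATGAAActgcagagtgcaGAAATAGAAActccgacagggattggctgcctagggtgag
IFIT1: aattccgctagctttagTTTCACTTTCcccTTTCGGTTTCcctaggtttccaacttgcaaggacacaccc
ISG15: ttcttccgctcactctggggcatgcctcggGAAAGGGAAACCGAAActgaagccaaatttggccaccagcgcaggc
OAS3: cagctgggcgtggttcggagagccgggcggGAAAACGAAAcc
IFIT3: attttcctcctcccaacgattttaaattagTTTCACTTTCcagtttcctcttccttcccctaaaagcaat
IFITM1: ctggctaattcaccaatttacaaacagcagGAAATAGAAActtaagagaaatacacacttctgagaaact
These stretches lie at chr1:27672246-27672315 (minus strand) for IFI6, chr10:89392490-89392559 for IFIT1, chr1:1013354-1013429 for ISG15, chr12:112938432-112938473 for OAS3, chr10:89327845-89327914 for IFIT3 and chr11:313970-314039 for IFITM1, all on the plus strand but the first. The match nearest the start, with any match that overlaps it, began 93 bases before the start in IFI6, 103 in IFIT1, 113 in ISG15, 12 in OAS3, 122 in IFIT3 and 40 in IFITM1. MX1, OAS1, OAS2 and OASL had larger mean differences than IFIT3. They are not shown, for lack of a match before the start or of a promoter in that table. Of 11 promoters of genes at least 2-fold higher in replicate 1 in both groups, 3 held a match (27.3%). A match is a description of letters and not of binding. The median difference between replicates was 0.67 on the log2(FPKM + 1) scale in the 22 effectors with a match, of which 20 were higher in both groups. It was 0.28 in the 19 without one, of which 16 were higher in both.

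The difference was large for the best-known effectors in each pair. IFI6, a mitochondrial and endoplasmic reticulum protein that curbs viral replication, was at 33.0 against 5.25 FPKM in the control pair and at 20.3 against 6.79 in the biotin pair. IFIT1, which binds viral RNA that lacks a host cap, was at 20.9 against 7.67 in the control pair and 13.2 against 3.24 in the biotin pair. In both genes the groups overlapped with each other while the replicate numbers did not. ISG15, a ubiquitin-like modifier and the most abundant effector, was at 484 against 265 FPKM in the control pair and 422 against 111 in the biotin pair. That is a 1.83-fold excess of replicate 1 in the control pair and a 3.80-fold excess in the biotin pair. The mean differences on the log2(FPKM + 1) scale were 2.13 ± 0.16 (SE) for MX1, 1.95 ± 0.28 for IFI6, 1.54 ± 0.18 for IFIT1 and 1.39 ± 0.34 for ISG15. Their adjusted p values in limma were 0.371, 0.552, 0.534 and 0.909.

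The oligoadenylate synthetases, which make the second messenger that activates RNase L, were all on the same side. OAS1 was at 6.35 against 2.24 FPKM in the control pair and 5.59 against 0.914 in the biotin pair. OAS2 was at 3.51 against 0.740 in the control pair and 8.67 against 1.75 in the biotin pair. OAS3 was at 24.1 against 12.2 in the control pair and 28.2 against 10.97 in the biotin pair. The related OASL, which acts with RIG-I and not through RNase L, was at 15.7 against 6.55 and at 10.2 against 4.46. All 4 genes were higher in replicate 1 of both groups, with mean log2 differences from 1.09 ± 0.15 for OASL to 1.59 ± 0.17 for OAS2, and none passed the adjusted threshold.

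**Figure D1:**
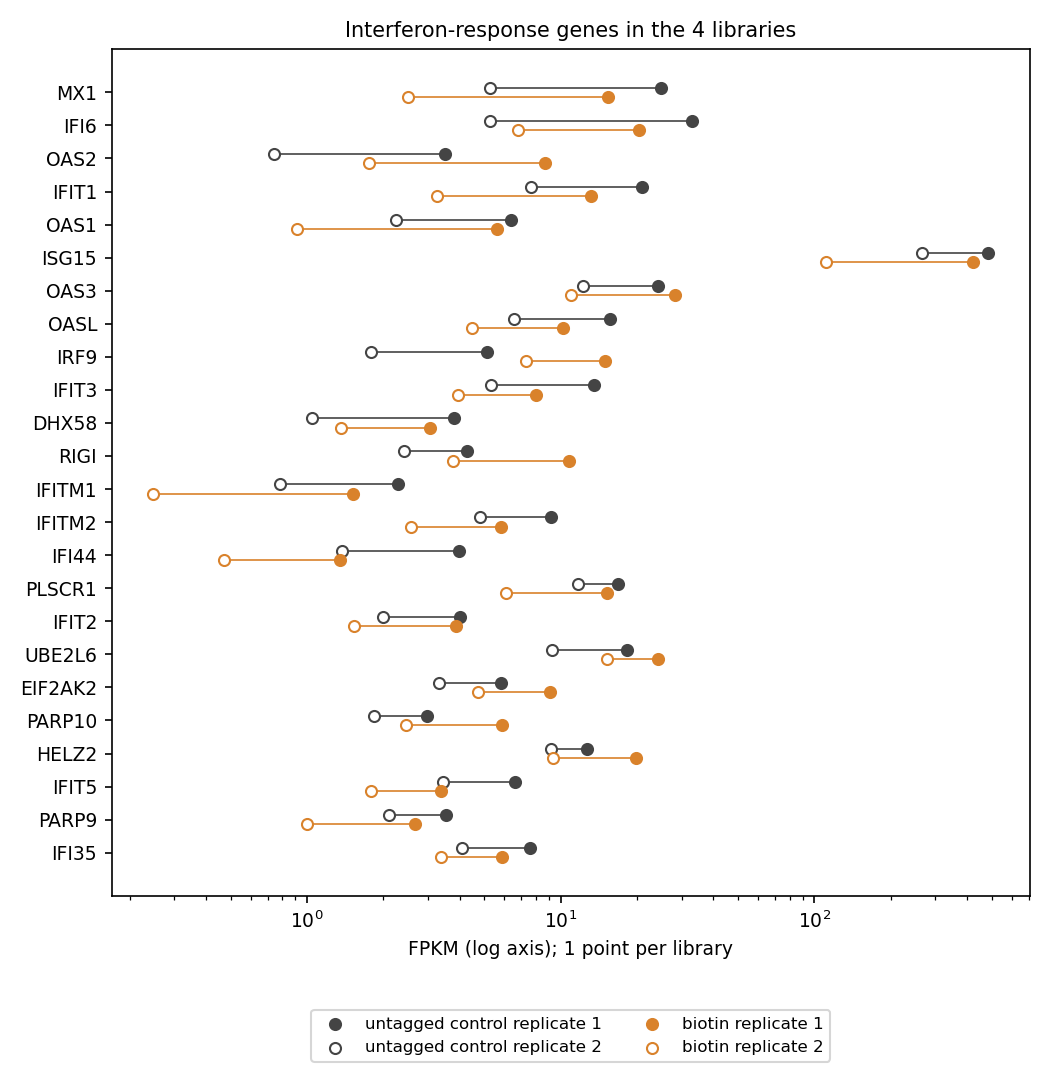
FPKM of the 24 interferon-response genes with the largest mean difference in replicate 1 (filled) and replicate 2 (open) of the untagged control (grey) and biotin (orange) groups, on a log axis with 1 point per library and a line joining the libraries of a group. Each filled point lies to the right of the open point of its group, as for MX1 at 24.8 against 5.29 and 15.3 against 2.50 FPKM.

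The following interferon genes were named after their values were seen. IFITM1 and IFITM2, membrane proteins that hinder viral entry, were at 2.29 against 0.779 and 9.14 against 4.79 FPKM in the control pair. In the biotin pair they were at 1.52 against 0.248 and 5.84 against 2.57. The third member, IFITM3, did not share this: it was at 7.05 against 2.76 FPKM in the control pair but at 1.05 against 1.76 in the biotin pair. Its control values came from a transcript listed at 0 in both biotin libraries. Its biotin values came from another transcript, listed at 0 in both control libraries. The pairs are thus not alike for IFITM3. The IFITM genes resemble each other closely, so reads could have been divided among them. EIF2AK2, the kinase that halts translation on double-stranded RNA, was at 5.83 against 3.31 and at 9.12 against 4.74. UBE2L6, the conjugating enzyme for ISG15, was at 18.3 against 9.27 and at 24.3 against 15.2, and USP18, the protease that removes ISG15, at 6.14 against 3.25 and at 4.43 against 2.75. Enzymes that add and remove the ISG15 tag were therefore on the same side as ISG15 itself.

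Over the effector list, 32 of 48 genes were higher and 1 was lower at an unadjusted p under 0.05 in limma. Over all tested genes the shares were 2.29% and 2.02%. After adjustment 0 effectors passed. The list was chosen knowing that interferon genes were higher in replicate 1, so these counts are not independent support. The median difference was 0.50 in the control pair and 0.64 in the biotin pair on the log2(FPKM + 1) scale, against -0.08 and 0.01 over all tested genes. By size, 19 effectors were at least 1.5-fold higher in FPKM + 1 in both pairs, against 0.635% of all tested genes. At least 2-fold higher were 6, against 0.161%. The single effector mean differences ranged from -0.41 for THEMIS2 to 2.13 for MX1. The remaining 3 effectors were TRIM5, RNF213 and IFITM3, which lay on opposite sides in the 2 groups, and the 2 lower in both were IFI30 and THEMIS2. A further 18 effectors did not pass the filter, none above 1.79 FPKM in any library, and 2 of them, IFI27 and TMEM140, were listed at 0 throughout. Among those 18, MX2 was at 1.78 against 0.320 FPKM in the control pair and 0.818 against 0.1004 in the biotin pair.

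Sensors and signalling genes of the pathway were less uniform. The receptor RIGI was at 4.28 against 2.41 FPKM in the control pair and 10.8 against 3.76 in the biotin pair, and the related DHX58 at 3.79 against 1.04 and at 3.06 against 1.36. IRF9, the DNA-binding part of the interferon-induced complex, was at 5.13 against 1.78 and at 14.9 against 7.28 FPKM. Its mean log2 difference was 1.04 ± 0.15 with an adjusted p of 0.552 in limma. STAT2 was at 9.46 against 6.68 and at 9.72 against 8.41. Upstream, the kinase TYK2 was at 11.9 against 13.3 and at 11.3 against 11.97, and the receptor chain IFNAR1 at 5.18 against 6.17 and at 5.43 against 4.57. Of 14 tested genes of this list 6 were higher in both groups (42.9%, against 20.4% of all tested genes). A further 3 were lower (21.4%, against 31.3%) and 5 lay on opposite sides. The list's medians were 0.06 in the control and 0.18 in the biotin pair. At an unadjusted p under 0.05 in limma 4 were higher and 0 lower, against 2.29% and 2.02% of all tested genes. At least 1.5-fold higher in both pairs were 3, against 0.635%, and 0 were lower by that rule, against 0.222%. IRF7, the IFIH1 sensor, TLR3, IRF2 and ZBP1 did not pass the filter. Whether the effector and signalling lists differ was not tested.

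Over all tested genes the pairs shared little. Across the 9926 genes, which are not independent replicates, the difference within the control pair and that within the biotin pair had a Pearson r of 0.005 and a Spearman rho of 0.04, and share no library. The same direction was seen in 5138 genes or 51.8% (95% Wilson interval 50.8 to 52.7%, counting error only). Without both interferon lists the Pearson r was -0.02 over 9864 genes, and over the 48 effectors alone it was 0.71. The interferon lists were chosen with these data known, so values drawn from them are not independent support. By the rule of size, 16 genes were at least 2-fold higher in replicate 1 in both groups (0.161%), 8 at least 2-fold lower (0.0806%), and 20 at least 2-fold in opposite directions (0.201%). At 1.5-fold the counts were 63 higher (0.635%) and 22 lower (0.222%). Of the 63 higher genes 22 were in the interferon lists, and of the 22 lower genes 0, whereas the 62 tested members of those lists made up 0.625% of all tested genes. The genes just inside the 2-fold limit were OASL on the high side and PPP4R1-AS1 on the low side, with smaller differences of 1.04 and -1.002. Just outside were the transcript NR_073495 at 0.99 and NRTN at -0.97.

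**Figure D2:**
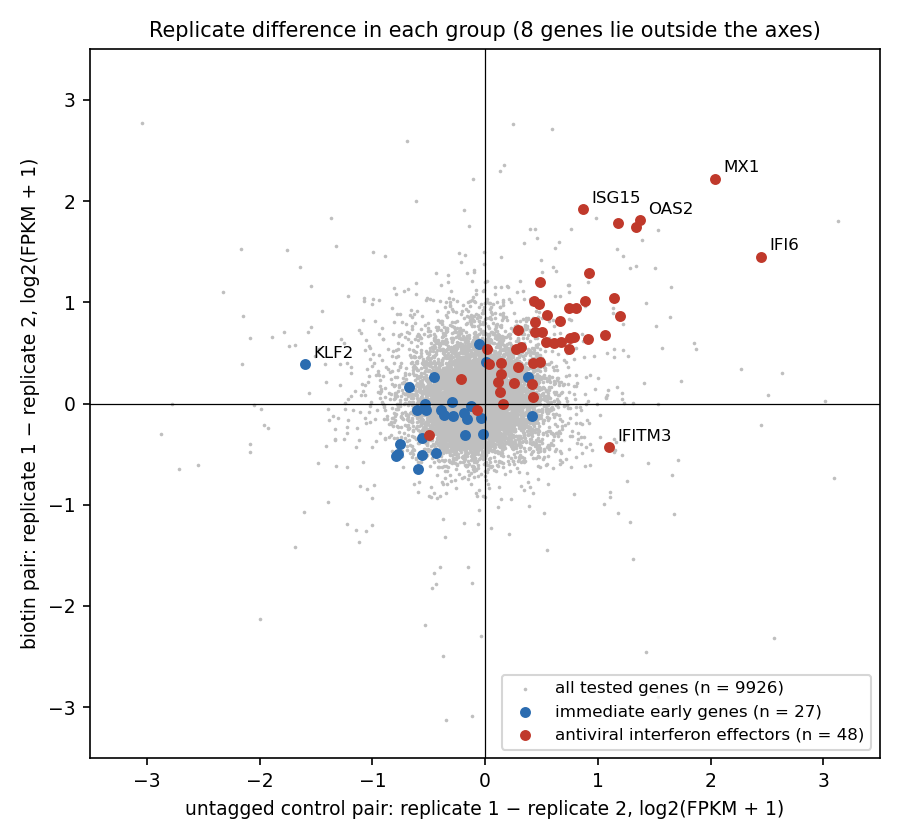
Replicate 1 minus replicate 2 on the log2(FPKM + 1) scale in the untagged control pair (x axis) and in the biotin pair (y axis), with 1 point per tested gene: grey for all 9926 genes, red for 48 antiviral effectors and blue for 27 immediate early genes. The grey cloud has no slope (Pearson r = 0.005), 43 of the red points lie in the upper right part, and 8 genes fall outside the axes.

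Several genes outside the interferon lists were also higher in replicate 1 of both groups. S100A9, a calcium-binding alarmin of epithelial and myeloid cells, was at 46.5 against 15.4 FPKM in the control pair and 21.5 against 5.85 in the biotin pair. MUC1, a transmembrane mucin of gland epithelium, was at 24.2 against 9.75 and at 22.2 against 7.46. The ratios of replicate 1 to replicate 2 were thus between 2.48 and 3.68 for these genes in either group. NDUFB11, a subunit of respiratory complex I, was at 57.8 against 21.4 and at 25.6 against 7.65, while the median of 67 tested oxidative phosphorylation genes was -0.13 in the control and 0.15 in the biotin pair. ZNF692, a zinc finger transcription factor, was at 5.37 against 1.25 and at 5.53 against 1.59. Their adjusted p values in limma were 0.534 each, for mean log2 differences of 1.62 ± 0.18 for S100A9, 1.34 ± 0.17 for MUC1, 1.51 ± 0.19 for NDUFB11 and 1.42 ± 0.14 for ZNF692. S100A8, the partner of S100A9, was looked up after its values were seen and was at 7.59 against 1.38 and at 1.88 against 0.906 FPKM. The neuropeptide gene NPW, at 3.16 against 0.322 and at 3.01 against 0.804 FPKM, was also above 0 in every library.

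Of the 16 genes with a 2-fold excess, 4 were listed at 0 in at least 1 library. TAF1A-AS1 was listed at 1.52 against 0 FPKM in the control pair and 1.56 against 0 in the biotin pair, and LGALS8, which encodes galectin-8, at 1.43 against 0 and at 1.53 against 0. The transcript NR_102705 was listed at 7.75 against 0 and at 2.48 against 0. SCO2, a copper chaperone of cytochrome c oxidase, was listed at 22.3 against 7.56 in the control pair and at 44.8 against 0 in the biotin pair. An exact 0 may be a failed estimate, so no fold is given for these genes.

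Within the 2-fold limit, 1 gene with a value in every library was lower in replicate 1 in both groups. HOMER3, a scaffold protein of signalling complexes, was at 3.85 against 13.8 FPKM in the control pair and 5.64 against 12.9 in the biotin pair, with a mean log2 difference of -1.34 ± 0.20 and an adjusted p of 0.552 in limma. It alone among the 8 genes past the 2-fold limit was above 0 in every library. HEXD, a hexosaminidase, was listed at 0 against 2.99 and at 0 against 3.38 FPKM. The oxysterol receptor gene NR1H3 was listed at 1.63 against 4.70 and at 0 against 1.57. The remaining genes, listed at 0 in both replicate 1 libraries, were IQCK, GHDC, PPP4R1-AS1 and the transcripts NR_024222 and NM_001166241, none above 2.22 FPKM elsewhere. Over the whole table a 0 in both replicate 1 libraries was found for 6 tested genes, and in both replicate 2 libraries for 3. Such genes could pass the filter only through the other replicate number, so their direction was fixed by their inclusion.

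Below the 2-fold limit, NRTN, a neurotrophic ligand of the GDNF family, was at 1.50 against 5.57 and at 2.92 against 6.67 FPKM. GLYCTK, glycerate kinase, was at 0.910 against 3.13 and at 1.67 against 3.68. Both genes were above 0 in every library, and both replicate 1 libraries lay below both replicate 2 libraries. TMPPE was listed at 0 against 1.07 and at 2.30 against 4.93, and LOC729218 at 0.326 against 1.65 and at 0.326 against 1.53. Among genes with a mean of at least 20 FPKM, the lowest relative to replicate 2 by the smaller of the pair differences were the histone genes H3C11 and H2BC21 and CYC1, the cytochrome c1 of complex III. H3C11 was at 80.2 against 202 in the control pair and 243 against 374 in the biotin pair, H2BC21 at 59.8 against 85.8 and at 46.4 against 66.6, and CYC1 at 41.2 against 63.6 and at 23.1 against 34.1. Histone genes resemble each other closely, so reads could have been divided among copies. Of 47 tested replication-dependent histones, 8 were higher and 16 lower in both groups, close to the shares over all genes.

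Immediate early genes were mostly lower in replicate 1. Of 27 tested members, 19 were lower in both groups (70.4%, against 31.3% of all tested genes), 2 higher (7.41%, against 20.4%) and 6 on opposite sides. At an unadjusted p under 0.05 in limma 7 were lower and 0 higher, against 2.02% and 2.29% of all tested genes. CCN2, a matricellular growth factor and target of YAP, was at 3.47 against 6.76 FPKM in the control pair and 3.08 against 4.84 in the biotin pair, with a mean log2 difference of -0.66 ± 0.15 and an adjusted p of 0.909 in limma. The members that follow were named after their values were seen. KLF6, a growth-regulating transcription factor, was at 4.37 against 7.09 and at 4.02 against 6.86. ZFP36, which destabilises cytokine mRNAs, was at 3.85 against 7.27 and at 6.01 against 8.89. In both genes the lower libraries of each pair were those of replicate 1. The MAP kinase phosphatases DUSP1 and DUSP6 were at 18.4 against 31.7 and 2.36 against 3.94 in the control pair, and at 15.2 against 20.2 and 1.54 against 2.63 in the biotin pair. For the list the median was -0.39 in the control pair and -0.11 in the biotin pair. KLF2, at 1.15 against 5.49 FPKM in the control pair and 3.14 against 2.16 in the biotin pair, had opposite directions.

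NF-kB targets and cytokines leaned the same way. Of 19 tested genes 13 were lower in replicate 1 in both groups (68.4%, against 31.3% of all tested genes). A further 3 were higher (15.8%, against 20.4%) and 3 lay on opposite sides. At an unadjusted p under 0.05 in limma 2 were lower and 0 higher, against 2.02% and 2.29% of all tested genes. Those 2 were TNFAIP3, an inhibitor of NF-kB, at 3.25 against 6.07 FPKM in the control pair and 2.87 against 4.34 in the biotin pair, and the chemokine CCL20, at 3.5002 against 6.26 and at 3.29 against 4.75. The control pair held most of the difference for CXCL8 and CSF2. CXCL8, which attracts neutrophils, was at 9.41 against 25.5 in the control pair but 9.71 against 10.7 in the biotin pair, and CSF2 at 0.511 against 4.98 but 2.02 against 2.15. IL6 was on the other side, at 4.41 against 3.27 and at 7.91 against 5.88. The list's median was -0.38 in the control and -0.13 in the biotin pair. Each pair has no residual degrees of freedom, so the difference between the pairs could not be tested. CXCL10, CXCL11 and CCL5, chemokines that interferon is known to induce, did not pass the filter, and CCL5 was listed at 0 in all libraries.

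By the mean over both pairs, other lists had smaller medians than the effector, immediate early and NF-kB lists. In the biotin pair alone some differed more than the immediate early (-0.11) and NF-kB (-0.13) lists, such as NRF2 targets at 0.26. Of 21 tested YAP targets 10 were lower in both groups (47.6%, against 31.3% of all tested genes) and 3 higher (14.3%, against 20.4%). Of 19 endoplasmic reticulum chaperone genes 9 were lower (47.4%) and 1 higher (5.26%). Of 27 tested TGF-beta response and matrix genes 4 were higher and 12 lower in both groups (44.4%), among them the laminin chain LAMB3, at 10.5 against 22.0 and at 14.7 against 20.2 FPKM. Of G1/S genes 8 of 32 were higher and 6 lower, and of G2/M genes 9 of 37 were higher and 8 lower, with medians between -0.05 and 0.13 in either pair. Cholesterol synthesis genes had 6 of 24 higher and 9 lower. HMGCS1, the cytosolic HMG-CoA synthase, was at 8.59 against 7.94 and at 8.89 against 9.67 FPKM. It lay on opposite sides in the 2 groups. DDIT4, a stress-induced inhibitor of mTOR, was at 19.2 against 32.9 and at 19.7 against 23.3, within an ATF4 list in which 2 of 27 genes were higher and 9 lower. Of 37 published miR-26 targets 6 were higher and 13 lower, and of 23 genes of the miRNA pathway 3 were higher and 6 lower. Both counts are near the shares over all tested genes.

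**Figure D3:**
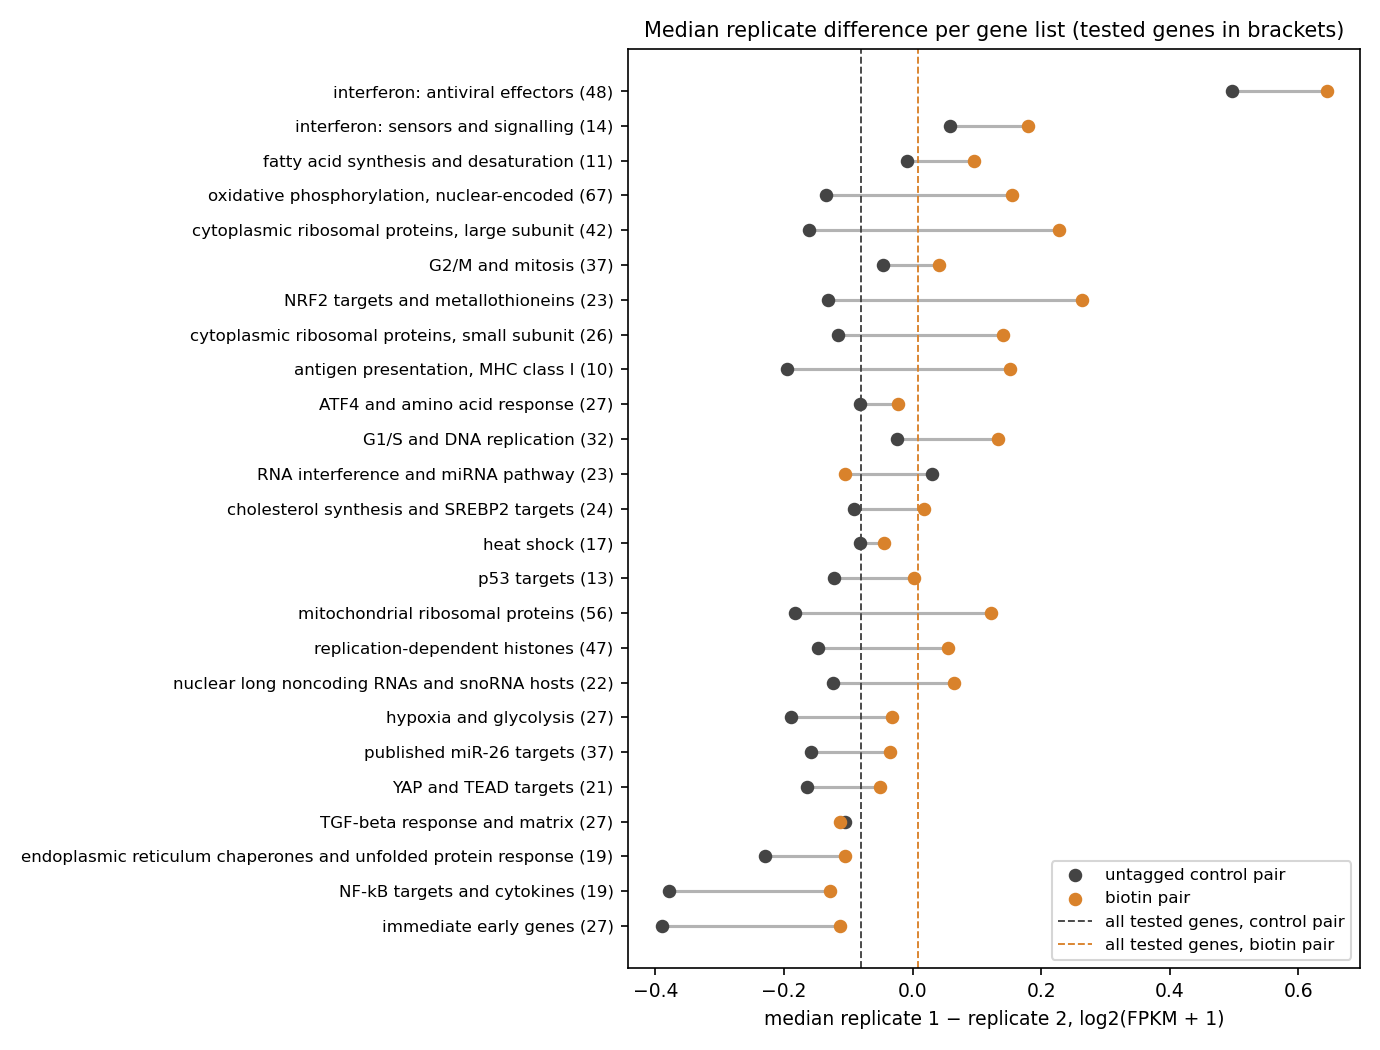
Median of replicate 1 minus replicate 2 on the log2(FPKM + 1) scale for each of 25 gene lists (number of tested genes in brackets), in the untagged control pair (grey points) and the biotin pair (orange points), with dashed lines at the medians of all tested genes (-0.08 and 0.01). Antiviral effectors lie at 0.50 and 0.64, and immediate early genes at -0.39 and -0.11.

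**Figure D4:**
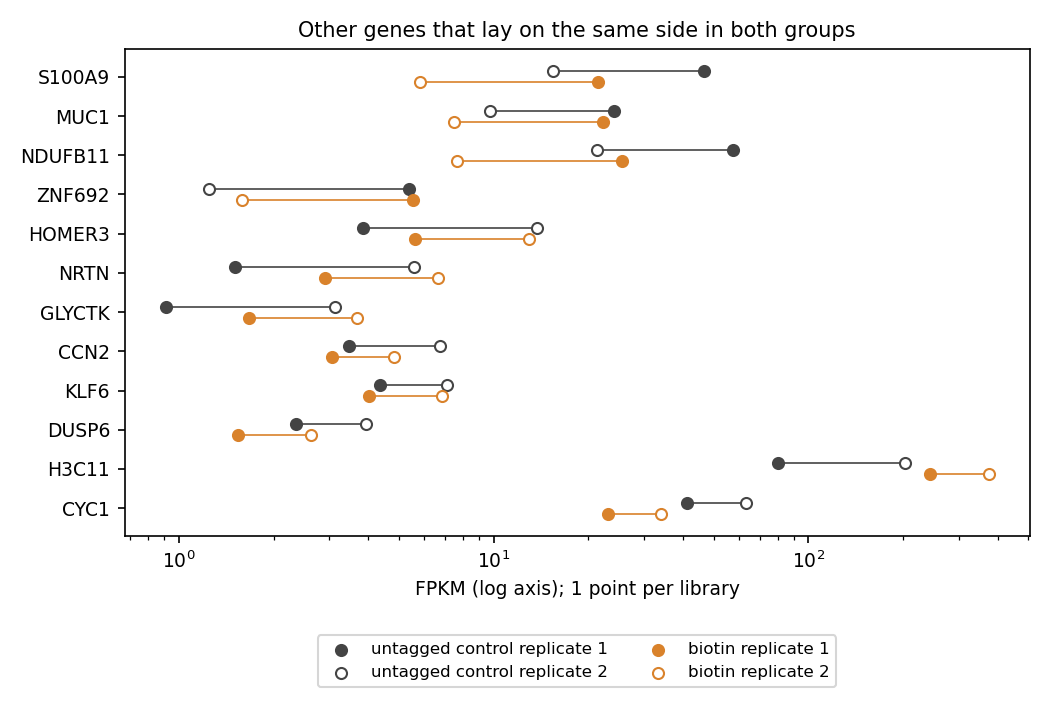
FPKM on a log axis of 12 genes outside the interferon lists, with filled points for replicate 1, open points for replicate 2, grey for the untagged control and orange for the biotin group. In the upper 4 genes replicate 1 lies to the right, as for S100A9 at 46.5 against 15.4 FPKM in the control pair, and in the lower 8 genes replicate 2 does, as for HOMER3 at 3.85 against 13.8.

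The effectors were also read by tag. In the comparison of biotin with control libraries, without a replicate term, 2 of 48 effectors were called higher and 0 lower in limma, against 13.2% and 9.35% of all tested genes. The called genes were LAMP3, a lysosomal membrane protein, at 1.21 against 0.809 FPKM in the control pair and 6.37 against 3.46 in the biotin pair, and SAMHD1, a dNTP hydrolase, at 5.25 against 3.67 and at 8.46 against 8.06. MX1 and ISG15 had adjusted p values of 0.554 and 0.430 in limma in that comparison. In that fit the replicate difference counts as spread, so few effectors could be called. The calls thus do not show whether effectors differed by tag. The effectors' median difference of biotin minus control was -0.27 on the log2(FPKM + 1) scale, against -0.06 over all tested genes. The 2 comparisons use the same 4 libraries.

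Library-wide measures were as follows. Mapped reads were estimated at 1.603e+07 and 1.783e+07 in the control pair and 1.757e+07 and 2.364e+07 in the biotin pair, so replicate 2 was the deeper library in each group. On a transcript of 1 kb 3 reads corresponded to between 0.127 and 0.187 FPKM, which covers counting error only. Short structured RNAs took 81.6 and 75.8% of summed FPKM in the control pair and 60.6 and 67.6% in the biotin pair, which is the opposite order in the 2 groups. Libraries of a group correlated at r = 0.97 across genes. Of 14 tested epithelial markers of DU-145, 5 were higher and 6 lower in both groups, with KRT18 between 45.1 and 65.0 FPKM. The summed level was 1998 and 1835 in the control pair and 1132 and 967 in the biotin pair. S100A6 alone held 1722 and 1509 of it in the control pair and 832 and 645 in the biotin pair. The sums therefore mostly reflect this gene and not the list. KLK3, which marks luminal prostate cells, and PTPRC, which marks blood cells, were listed at 0 in all 4 libraries, and no marker of fibroblasts reached 1 FPKM. Of the blood cell list only CD14 was tested, at 0.6747 against 0.372 and at 2.57 against 1.28, and of the endothelial list only EGFL7, at 16.2 against 15.0 and at 18.9 against 14.7. The part of depth and of these markers in the differences was not tested.

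Transcript length was also compared. Across tested genes the Spearman rho between transcript length and the replicate difference was 0.04 in the control pair and -0.24 in the biotin pair. The median difference in the biotin pair was 0.19 for 786 genes with transcripts under 1000 nt and -0.06 for 1929 genes over 5000 nt, and in the control pair -0.08 and -0.07. The tested effectors had a median length of 3265 nt, against 2857 nt for all tested genes, and a median of 5.63 against 4.43 FPKM. Genes past the size rules had shorter transcripts, with medians of 1677 nt for the 2-fold higher, 2001 nt for the 2-fold lower, 1487 nt for the 1.5-fold higher and 1980.5 nt for the 1.5-fold lower genes.

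With 2 pairs, an exact permutation of the replicate numbers within groups cannot go below a two-sided p of 0.5. The model has 1 residual degree of freedom, so its p values lean on the spread that limma shares across genes.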

How the data were processed

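The authors deposited 1 Cufflinks table per library with 53209 transcript rows. The deposited values are FPKM, per the file headers, and the same tables hold a coverage signal, used here to estimate depth with the 50-base read length, and transcript length. TopHat2 2.0.9, cutadapt, FastQC 0.10.1, Cuffdiff, Cufflinks 2.1.1 and the build hg38 are named, without role or order, per the submitters' processing notes. Settings, annotation and use of strand: not given in the sources used here. Hence overlapping, antisense or near-identical genes could share reads. Of 46699 RefSeq accessions 98.6% were matched to a symbol in the RefSeq gene table or GENCODE 29, and FPKM was summed per gene. Left out were 22 genes with a failed or excess-data row, short structured RNA genes, and unmatched accessions under 300 nt.

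Differences were tested in limma 3.58.1 (R 4.3.3) on log2(FPKM + 1), with the group as block and a variance trend, two-sided, with Benjamini-Hochberg adjustment and a threshold of 0.05. Adding 1 makes differences of low genes look smaller. The script was tested on simulated data. Each p measures only the spread between these libraries. The gene lists and named genes were chosen with earlier results of these data known, in which interferon genes were already seen to be higher in replicate 1, so they are not independent support. Named genes were the 12 with the largest difference in each direction, ranked by the smaller of their differences in the 2 groups because none was called, the 3 largest in each direction above a mean of 20 FPKM, list members called or 2-fold in both groups, and a fixed set of genes, of which some are not reported here. Other genes named in the text were chosen after their values were seen. Alternatives were other pseudocounts, filters, scalings and folds, single transcripts, short RNA genes kept, no variance trend, no group block, each library left out, and, chosen after seeing the data, genes at 0 left out.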

Additional observations from a re-analysis of the deposited data

Results flagged for a closer look

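Some lists had medians on opposite sides in the 2 groups, each by at least 0.1 on the log2(FPKM + 1) scale of replicate 1 minus replicate 2, and none of these differences between groups could be tested with 1 library per cell of the design. Large-subunit ribosomal proteins lay at -0.16 in the control pair and 0.23 in the biotin pair, small-subunit ribosomal proteins at -0.12 and 0.14, and mitochondrial ribosomal proteins at -0.18 and 0.12. Nuclear-encoded oxidative phosphorylation genes lay at -0.13 and 0.15. NRF2 targets and metallothioneins lay at -0.13 and 0.26, and MHC class I antigen presentation at -0.20 and 0.15. With quantile scaling the control medians of oxidative phosphorylation genes, NRF2 targets and small-subunit proteins were above 0 (0.01, 0.04 and 0.05), as was the last with upper-quartile scaling (0.009). Quantile scaling brought large-subunit proteins to -0.013 and 0.058 and mitochondrial ribosomal proteins to -0.053 and 0.084. Beside these values, the median of all tested genes was -0.08 and 0.01. The gene HMGCS1 differed by 0.10 in the control pair and -0.11 in the biotin pair.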

How the results depend on the processing

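The count of called genes stayed at 0 under each alternative but 1: with short RNA genes kept, 3 were higher and 7 lower in limma. The 16 higher and 8 lower genes of the 2-fold rule became 37 and 13 with a pseudocount of 0.1, 6 and 0 with 5, 8 and 1 with a mean FPKM of at least 5, 180 and 225 with single transcripts and 27 and 39 with short RNA genes kept. Without genes listed at 0 in any library 12 and 1 remained by count. The 1.5-fold rule gave 63 and 22, and the 3-fold rule 2 and 1. Leaving out a library leaves the pair of the other group and a value with no test, with 75 to 124 genes higher and 40 to 109 lower. The share of genes with the same direction was 46.9% with no filter, 50.2% with a mean FPKM of at least 5 and 49.9% with single transcripts. The effector median of 0.62 became 0.78 with a pseudocount of 0.1, 0.31 with 5 and 0.44 with no filter, and lay between 0.50 and 0.64 with a library left out. With upper-quartile, then median-of-ratios, then quantile scaling, 42, 43 and 41 of 48 effectors were higher in both groups. Under the same scalings 18, 17 and 18 of 27 immediate early genes and 13, 13 and 13 of 19 NF-kB genes were lower. Directions reversed for HMGCS1, from a mean difference of -0.004 to 0.019, 0.027 and 0.0195 under these scalings and to 0.10 without either biotin library (-0.11 without either control library), and for the fatty acid list, at 0.08, to -0.0084 without either biotin library. Of 480 alternative values for 34 named genes, 475 kept their direction and their side of the threshold. Most of these genes were chosen for the same direction in both groups, so leaving out a library could not reverse them. None was called at the outset, so this count is not support. Biotin against control gave 1310 higher and 928 lower genes. With the replicate block these were 1092 and 539, and with a library left out between 195 and 697 higher and between 31 and 237 lower. The correlation across genes between the control pair difference and the biotin pair difference was 0.005, and over the 48 effectors alone 0.71. A correlation over all genes cannot show whether same-numbered libraries were prepared together, and pairing was not tested. The cause of these changes was not tested.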

Other observations

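Interferon genes themselves were low. IFNB1, the first type I interferon of most epithelial cells, was listed at 0.236 against 0 FPKM in the control pair and 0 against 0.0393 in the biotin pair. IFNL1, a type III interferon, was listed at 0 against 0 and at 0.906 against 0.365, and IFNA1, IFNG, IFNL2 and IFNL3 at 0 in all libraries. IFNE, an epithelial type I interferon, was the highest of those looked up, at 1.10 against 1.18 and at 0.667 against 1.36, and was lower in replicate 1 in both groups. SOCS1, which restrains JAK signalling, was listed at 0 against 0.567 in the control pair and 3.65 against 1.79 in the biotin pair. These genes were looked up after the other values were seen.

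Single transcripts of the effectors mostly followed their genes. Of 61 transcripts from 47 effectors with at least 1 FPKM in 2 libraries, 49 were higher in replicate 1 in both groups (80.3%), against 21.6% of 11991 transcripts of all genes. The main MX1 transcript, NM_002462, was at 19.1 against 4.05 FPKM in the control pair and 10.2 against 1.49 in the biotin pair, and the shorter NM_001282920 at 5.66 against 1.24 and at 5.11 against 0.709. SHISA5 differed from this pattern. Its transcript NM_001272066 was listed at 35.5 against 0 in the control pair and 54.5 against 0 in the biotin pair, and NM_001272065 at 0 against 26.8 and at 0 against 17.3. The gene sum was 53.9 against 49.1 in the control pair and 61.7 against 56.8 in the biotin pair, so the listed transcript switched with the replicate number in both groups while the sum differed by 0.13 and 0.12 on the log2(FPKM + 1) scale.

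Genes of short structured RNAs entered no test. Among 300 that passed the same filter, 11 were at least 2-fold higher in replicate 1 in both groups and 31 lower, with 40 in opposite directions. Over the 9926 tested genes the shares were 0.161%, 0.0806% and 0.201%, so short RNA genes passed this size rule more often in each direction. Of those 11, 7 were listed at 0 in both replicate 2 libraries, and of the 31, 16 in both replicate 1 libraries. When these genes were kept in the fit, limma called MIR6764, SNORD24 and SNORA13 higher and 7 genes lower, and each of the 10 was listed at 0 in both libraries of 1 replicate number. MIR6764, of 61 nt, was listed at 537 against 0 FPKM in the control pair and 589 against 0 in the biotin pair, and MIRLET7D, of 87 nt, at 0 against 39.1 and at 0 against 38.6.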
